A study of Mus musculus with 3 samples.

Results

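TRAJ22 is a joining (J) segment of the mouse T cell receptor α locus, and its chains were followed through the thymus in 6 sorted populations. Members were the cells with exactly 1 productive α (TRA) contig, that contig being assigned to TRAJ22, and they numbered 338 of 6982 cells with exactly 1 productive α contig. TRAJ22 was chosen by its measured use and by the frequency of 1 of its CDR3 in double-positive cells, so its levels are given as a description with no test.

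An α chain is made when a variable (V) segment is joined to a J segment, with bases trimmed from both ends and added between them, so that the junction (CDR3) differs from cell to cell. The locus can rearrange again on the same allele, using V segments ever farther from the J cluster and J segments ever nearer to the constant gene, until a thymocyte is positively selected or dies. Double-positive (DP) thymocytes carry the repertoire before and during selection, CD4 single-positive (CD4 SP) cells have passed positive selection, and regulatory T (Treg) cells, which depend on Foxp3, arise from CD4 SP cells through progenitor states.

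Cells came from the thymus of 8 female mice, 7 to 12 weeks old and combined in 1 pool. They were sorted as DP (CD4+CD8+) and CD4 SP cells, as Treg progenitors (TRP) that were either CD25+ TRP or Foxp3lo TRP, and as Treg cells without CD73 (CD73- Treg) or with it (CD73+ Treg). Every mouse, of a strain written as C56Bl/6, carried the TCliB β chain transgene, 1 intact TCRα allele (TCRα+/-) and the Foxp3-GFP reporter, and all cells were sorted for Vα2 on the surface, which the TRAV14 genes encode. CD8+ cells were depleted before sorting for all populations except DP, which came from whole thymocytes. Each population was marked by its own hashtag in 1 pool with 1 set of libraries, mice were not told apart, and the fixed β chain and the Vα2 gate restrict the repertoire, so there are no replicates and intervals are exact Clopper-Pearson 95% intervals that cover counting error only. Cells descended from 1 rearrangement are not independent, which makes these intervals too narrow for cell shares.

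The matrix held 12208 cells, of which 57.2% had exactly 1 productive α contig. That share differed between the populations, at 41.9% in DP, 75.9% in CD4 SP and 71.2% in CD25+ TRP cells, with 57.7% in Foxp3lo TRP cells, and 49.1% in CD73- and 44.0% in CD73+ Treg cells. The gene rows used here carry no gene name, so the sort could not be checked against marker genes. TRAJ22 contigs rested on a median of 17 UMIs, against 18 for other TRAJ, and 1 of the 338 TRAJ22 cells had under 3 UMIs. A productive β contig was assembled in 43 TRAJ22 cells, and 42 of these used TRBV19 (97.7%), against 819 of 900 cells with other TRAJ (91.0%); a β contig was found in 12.7% of TRAJ22 cells and 13.5% of others.

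TRAJ22 (gene ENSMUSG00000076907) lies at chr14:54197248-54197307 on the plus strand of GRCm38, as a single coding segment of 60 bases, with 23213 bases between it and the constant gene TRAC. Its nearest neighbours toward the V side are TRAJ23 and TRAJ24, and toward the constant gene TRAJ21 and TRAJ20. The germline segment is shown because most TRAJ22 junctions keep nearly all of it. Capitals mark the codons of the phenylalanine that closes the CDR3 and of the G-S-G stretch after it.

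TRAJ22 segment: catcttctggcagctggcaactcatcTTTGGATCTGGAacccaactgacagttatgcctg
TRAJ22 bases inside the CDR3: catcttctggcagctggcaactcatcttt
end of each TRAV14 copy inside the CDR3: tgtgcagcaagtg

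All 8 TRAV14 copies found among the cells end in the same 13 bases inside the CDR3, counted from the conserved cysteine codon, so the copy that was joined cannot be read from the junction. TRAJ22 supplies up to 29 bases. Read in frame, these give the CDR3 ending SSGSWQLIF, which 181 of 338 TRAJ22 cells carried. The shorter ending SGSWQLIF was kept in 316 cells and SWQLIF in 337.

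The frequent TRAJ22 CDR3 are shown next, since the results turn on them. Each line is 1 nucleotide version, 5′ to 3′ from the cysteine to the phenylalanine codon, named by its amino acids, and capitals mark bases that match neither the TRAV14 end nor the TRAJ22 start. The CDR3 with glycine and alanine after its serine 4 is called the glycine-alanine CDR3, and the last line is the 15-residue CDR3.

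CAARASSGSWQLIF, version in 17 cells: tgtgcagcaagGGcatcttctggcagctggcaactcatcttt
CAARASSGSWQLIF, version in 6 cells: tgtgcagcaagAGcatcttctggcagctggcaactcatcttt
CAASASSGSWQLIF, version in 18 cells: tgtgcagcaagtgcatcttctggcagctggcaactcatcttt
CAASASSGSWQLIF, version in 2 cells: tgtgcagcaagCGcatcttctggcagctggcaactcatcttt
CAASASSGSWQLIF, version in 1 cell: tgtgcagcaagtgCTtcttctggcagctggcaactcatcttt
glycine-alanine CDR3, version in 9 cells: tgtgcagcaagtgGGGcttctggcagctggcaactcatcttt
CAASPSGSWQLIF, version in 10 cells: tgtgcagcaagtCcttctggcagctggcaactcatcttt
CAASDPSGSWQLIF, version in 7 cells: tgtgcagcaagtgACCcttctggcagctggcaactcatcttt
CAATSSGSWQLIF, version in 6 cells: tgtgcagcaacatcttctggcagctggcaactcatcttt
15-residue CDR3, version in 5 cells: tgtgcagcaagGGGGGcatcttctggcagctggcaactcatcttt

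TRAJ22 was used at every stage. It was found in 66 of 1266 DP cells (5.21%, 4.05 to 6.59), in 72 of 1849 CD4 SP cells (3.89%, 3.06 to 4.88) and in 84 of 1783 CD25+ TRP cells (4.71%, 3.77 to 5.80). It was also found in 27 of 804 Foxp3lo TRP cells (3.36%, 2.22 to 4.85), in 15 of 223 CD73- Treg cells (6.73%, 3.81 to 10.9) and in 74 of 1057 CD73+ Treg cells (7.00%, 5.54 to 8.71). CD73+ and CD73- Treg cells stood highest, then DP, CD25+ TRP, CD4 SP and Foxp3lo TRP cells, and the intervals of all neighbours in that order overlapped. Among the TRAJ segments of each population TRAJ22 ranked 1 of 43 in DP, 7 of 42 in CD4 SP and 5 of 43 in CD25+ TRP cells, and 10 of 40 in Foxp3lo TRP, 3 of 36 in CD73- and 3 of 42 in CD73+ Treg cells. In DP cells TRAJ31 was next with 65 cells (5.13%). Of the 66 TRAJ22 cells there, 10 carried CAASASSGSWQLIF, whose frequency was part of the choice of TRAJ22.

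Counting each different CDR3 amino acid sequence once in a population removes the weight of expanded or recurrent chains. TRAJ22 then made up 4.67% of CDR3 in DP (3.50 to 6.10), 3.74% in CD4 SP (2.62 to 5.16) and 5.32% in CD25+ TRP cells (4.02 to 6.88). It made up 4.84% in Foxp3lo TRP cells (3.15 to 7.06), 6.99% in CD73- (3.77 to 11.7) and 7.04% in CD73+ Treg cells (5.18 to 9.31). Foxp3lo TRP cells, lowest by cells, were no longer lowest, and CD4 SP cells were. The TRAJ22 cells of the Foxp3lo TRP population were nearly all different, with 25 CDR3 in 27 cells.

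**Figure D1:**
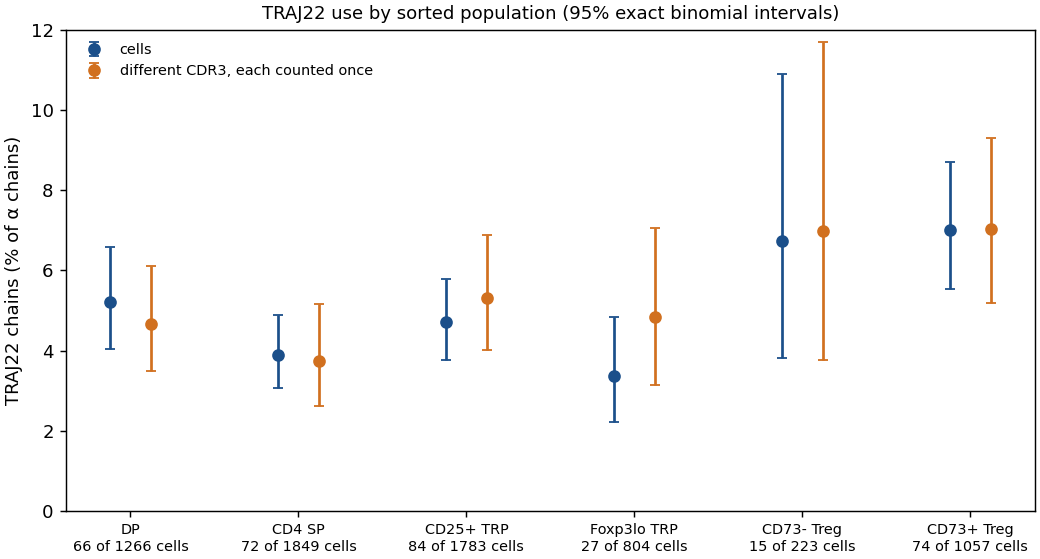
Share of α chains that use TRAJ22 (vertical axis, percent) in the 6 sorted populations in the order of the thymic stages, by cells and with each different CDR3 counted once; points are shares of 1 pool and bars exact 95% intervals. By cells the shares lie between 3.36% in Foxp3lo TRP and 7.00% in CD73+ Treg cells, and the intervals of CD73+ Treg and CD4 SP cells are apart by either count.

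The only comparison of the 8 made whose intervals were apart for TRAJ22 was that of CD73+ Treg over CD4 SP cells, at 7.00% against 3.89%, a ratio of 1.80 by cells and 1.89 by different CDR3. In the same comparison 14 of 32 TRAJ segments with at least 20 cells differed by over 1.5-fold in either direction (43.8%), and the intervals of 8 (25.0%) were apart, so TRAJ22 is 1 of several segments that differed there. CD73- Treg over Foxp3lo TRP cells gave a ratio of 2.00, but the intervals overlapped, with 47.4% of segments past 1.5-fold and intervals apart for 0.0% of them. No other comparison took TRAJ22 past 1.5-fold.

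CD4 SP over DP cells gave a ratio of 0.747 for TRAJ22, at 3.89% against 5.21%. Of the 8 comparisons this one had the widest change of J use, since 68.4% of segments passed 1.5-fold and the intervals of 44.7% were apart. The ratio was 1.21 for CD25+ TRP over CD4 SP cells (20.6% of segments past 1.5-fold, 11.8% apart) and 0.862 for Foxp3lo TRP over CD4 SP cells (29.0% and 9.68%). It was 1.40 for CD25+ TRP over Foxp3lo TRP cells (25.8% and 3.23%) and 1.43 for CD73- Treg over CD25+ TRP cells (39.3% and 3.57%). CD73+ over CD73- Treg cells gave 1.04, with 33.3% of segments past 1.5-fold and 11.1% apart. These comparisons share populations, and with 1 pool none has a replicate check.

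TRAJ22 differed in level from the segments beside it on the locus. TRAJ23, 1107 bases to the V side, was at 3.55% in DP and between 6.22% and 9.87% in the other 5 populations. The neighbour was thus below TRAJ22 in DP cells and above it in the rest. The intervals of the 2 segments were apart in CD4 SP, CD25+ TRP and Foxp3lo TRP cells. They overlapped in DP cells (2.6 to 4.73 against 4.05 to 6.59) and in both Treg populations. TRAJ21 was at 2.59% over all cells and TRAJ24 at 1.43%, both below the 4.84% (4.35 to 5.37) of TRAJ22. TRAJ20 was found in 0 of 6982 cells, for which the exact upper bound is 0.0528%. Of the 27 segments with at least 100 cells, those whose shares over the 6 populations were most like those of TRAJ22 were TRAJ7 (Pearson r = 0.808), TRAJ40 (r = 0.780) and TRAJ15 (r = 0.779). TRAJ7 and TRAJ22 shared the order of the 2 Treg populations above the rest, but TRAJ7 was at 13.3% in CD73+ Treg and 1.41% in CD4 SP cells, a wider span than that of TRAJ22. These r values rest on 6 points from 1 pool, whose shares within a population must sum to the whole, and are a description.

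Within the DP population the authors' transcriptional clusters differed in TRAJ22 use. TRAJ22 was carried by 44 of 580 DP cells in cluster 6 (7.59%, 5.57 to 10.1), against 9 of 349 in cluster 4 (2.58%, 1.19 to 4.84), a ratio of 2.94. Cluster 8, the other large DP cluster, had 10 of 214 (4.67%, 2.26 to 8.43). The 44 cells of cluster 6 held 34 different CDR3 and the 9 of cluster 4 held 9, so neither was mostly 1 repeated chain. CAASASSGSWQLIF, whose DP frequency was part of the choice of TRAJ22, was not counted by cluster. Whether the clusters differ without it was not tested. Between these clusters the intervals of 10 of 23 segments (43.5%) were apart in either direction, 5 of them higher in cluster 6, so TRAJ22 was 1 of several segments that differed between them. Clusters carry numbers only, since no gene name is given for the rows used here.

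Among CD73+ Treg cells TRAJ22 was in 33 of the 368 of cluster 3 (8.97%, 6.25 to 12.4), against 15 of the 234 of cluster 9 (6.41%, 3.63 to 10.4), which holds CD73+ Treg cells alone among cells with 1 α chain. Among CD4 SP cells it was in 40 of the 713 of cluster 2 (5.61%, 4.04 to 7.56), against 21 of the 707 of cluster 1 (2.97%, 1.85 to 4.50). In both of these pairs the intervals overlapped. Over all populations, cluster 10 had the lowest share among clusters with at least 50 cells, at 7 of 329 (2.13%, 0.860 to 4.33), and cluster 3 the highest, at 39 of 501 (7.78%, 5.59 to 10.5).

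**Figure D2:**
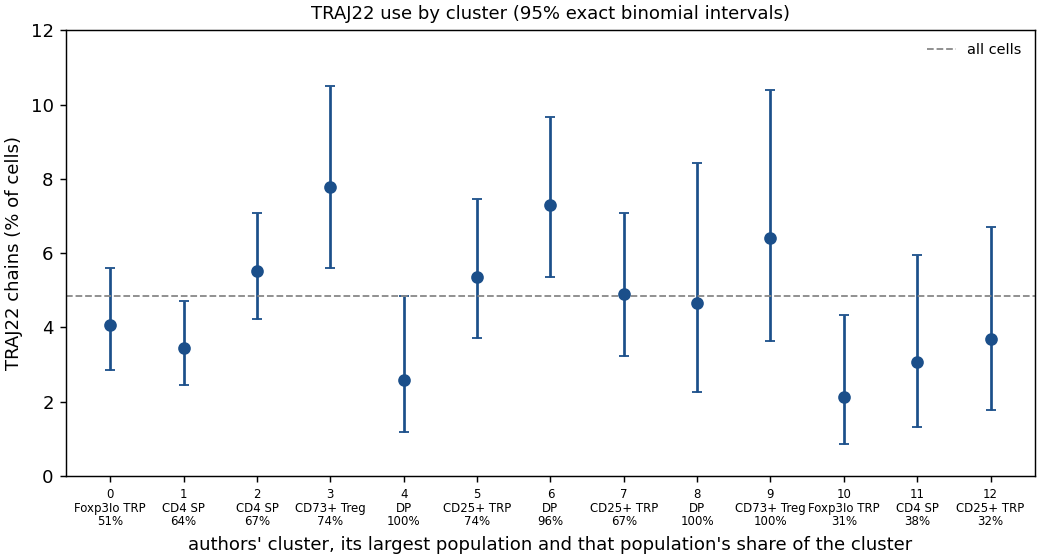
Share of cells with a TRAJ22 chain (vertical axis, percent) in each of the authors' clusters with at least 50 cells with 1 α chain; below each cluster number stand its largest population and that population's share of the cluster. Bars are exact 95% intervals and the dashed line is the 4.84% of all cells; cluster 6, mostly DP, lies at 7.30% and cluster 4, all DP, at 2.58%.

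The 338 TRAJ22 cells carried 155 different CDR3 amino acid sequences, written by 206 nucleotide sequences and 251 rearrangements, a rearrangement being a V gene with a CDR3 nucleotide sequence. Of the CDR3, 109 were seen in 1 cell, 116 in 1 population and 1 in all 6. Thinned to the 15 cells of the smallest population, TRAJ22 cells would be expected to show 13.3 different CDR3 in DP, 11.6 in CD4 SP and 13.5 in CD25+ TRP cells, with 14.4 in Foxp3lo TRP cells, and 13.0 in CD73- and 12.8 in CD73+ Treg cells. The same number of cells with other TRAJ, which span many segments, would show between 14.0, in CD73+ Treg cells, and 15.0, in DP cells. CD4 SP cells were the least varied, with 35 CDR3 in 72 cells, and their largest single rearrangement was in 7 cells.

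Populations shared part of their TRAJ22 CDR3. CD73+ Treg cells shared 5 CDR3 with CD4 SP cells, which is 11.1% of the 45 in CD73+ Treg and 14.3% of the 35 in CD4 SP cells. CD73+ Treg cells shared 13 with DP cells (28.9% of 45 and 25.5% of 51) and 12 with CD25+ TRP cells (26.7% of 45 and 22.2% of 54). CD25+ TRP cells shared 20 with DP cells (37.0% of 54 and 39.2% of 51) and 12 with CD4 SP cells (22.2% of 54 and 34.3% of 35). CD73+ and CD73- Treg cells shared 3 (6.67% of 45 and 23.1% of 13). Sharing depends on the number of cells seen, and most CDR3 were in a single cell.

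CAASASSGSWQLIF was the leading TRAJ22 CDR3 of DP cells. It was in 10 DP, 3 CD4 SP and 3 CD25+ TRP cells, in 0 Foxp3lo TRP cells, and in 0 CD73- and 5 CD73+ Treg cells. For the counts of 0 the exact upper bounds are 0.458% of Foxp3lo TRP and 1.64% of CD73- Treg cells. The 10 DP cells were 0.790% of DP cells (0.379 to 1.45), rank 2 among all CDR3 of the population, against rank 89 in CD4 SP, 75 in CD25+ TRP and 11 in CD73+ Treg cells. Of CD4 SP cells 0.162% (0.0335 to 0.473) carried it and of CD73+ Treg cells 0.473% (0.154 to 1.10), so the intervals of all 3 overlapped. It came from 10 rearrangements with 7 TRAV14 copies, the largest of them in 4 cells, and its cells lay in 11 clusters.

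Its main version, in 18 of the 21 cells, is the uncut TRAV14 end joined straight to the uncut TRAJ22 start, as the lines above show: none of its letters are in capitals. That version was in 8 DP, 3 CD4 SP, 3 CD25+ TRP and 4 CD73+ Treg cells and used 7 TRAV14 copies. By the deposited V assignment these 18 cells therefore did not share 1 rearrangement. The other 2 versions, in 2 and 1 cells, each hold 2 bases not in the germline and spell the same amino acids.

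Such direct joins can be made in frame with 25 of the 41 scored TRAJ segments, TRAJ22 among them, and only chains of these segments are compared here. Direct joins were 18 of 329 scored TRAV14-TRAJ22 chains (5.47%, 3.27 to 8.51), against 254 of 4363 with the other in-frame TRAJ (5.82%, 5.15 to 6.56), and 207 of these 254 used TRAJ13. Over all cells the interval of TRAJ22 holds the share of the other segments, but that share rests mostly on TRAJ13. By share TRAJ13 was at 38.1%, TRAJ31 at 5.81%, TRAJ52 at 4.29% (3 of 70) and TRAJ23 at 2.79%. Apart from these and TRAJ22, every in-frame segment was at 1.64% or below, though some had few chains, such as TRAJ58 (1 of 61). All 18 direct TRAJ22 joins spell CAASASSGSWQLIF, so the TRAJ22 share is not independent of the choice of TRAJ22.

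In DP cells direct joins were 8 of 61 TRAJ22 chains (13.1%, 5.84 to 24.2), against 18 of 677 others (2.66%, 1.58 to 4.17), and 10 of these 18 were among 33 TRAJ13 chains. The 8 are DP cells of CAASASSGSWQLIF, whose frequency in DP cells was part of the choice of TRAJ22, so this gap describes that choice and adds nothing to it. In CD4 SP cells they were 3 of 72 TRAJ22 chains (4.17%, 0.868 to 11.7) against 118 of 1263 others (9.34%, 7.79 to 11.1), 102 of them TRAJ13. CD25+ TRP cells had 3 of 82 (3.66%, 0.761 to 10.3) against 70 of 1165 (6.01%, 4.71 to 7.53). None was seen among 27 TRAJ22 chains of Foxp3lo TRP and 15 of CD73- Treg cells, with upper bounds of 12.8% and 21.8%. CD73+ Treg cells had 4 of 72 (5.56%, 1.53 to 13.6) against 6 of 570 (1.05%, 0.387 to 2.28). Outside DP the intervals overlapped in all 5 populations.

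**Figure D3:**
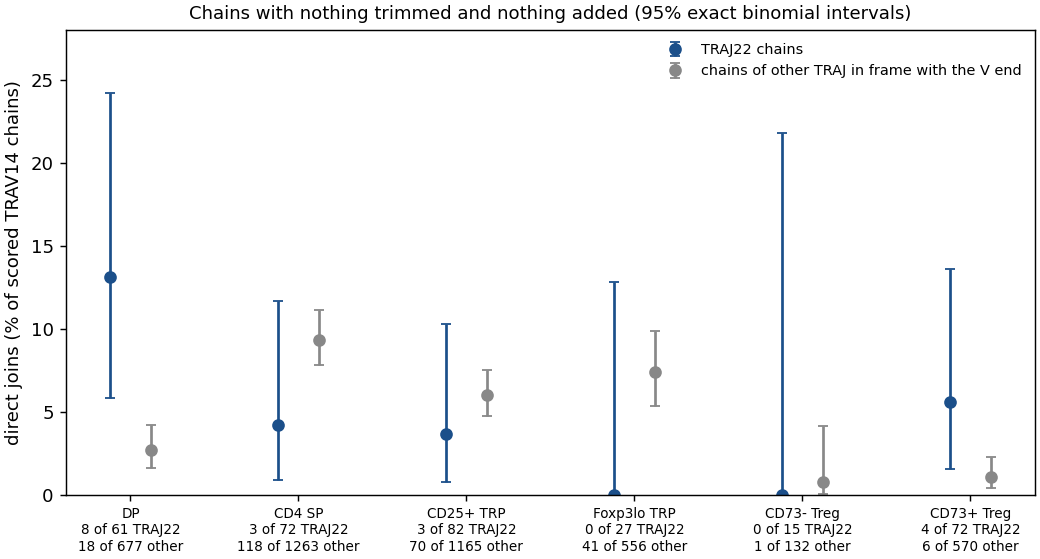
Share of scored TRAV14 chains in which the V end and the J start are joined with nothing trimmed or added (vertical axis, percent), for TRAJ22 and for the other TRAJ segments in frame with the V end, in each population; points are shares and bars exact 95% intervals. Over the populations TRAJ22 lies between 0.0% and 13.1%, and its DP value rests on the CDR3 that was part of the choice of TRAJ22; in the other 5 populations the bars overlap.

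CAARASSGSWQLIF, with 23 cells, was the most frequent TRAJ22 CDR3 over all cells and the one found in all 6 populations. It was in 2 DP, 8 CD4 SP and 7 CD25+ TRP cells, in 2 Foxp3lo TRP cells, and in 2 CD73- and 2 CD73+ Treg cells. As a share of TRAJ22 cells that was 3.03% in DP, 11.1% in CD4 SP and 8.33% in CD25+ TRP cells, with 7.41% in Foxp3lo TRP cells, and 13.3% in CD73- and 2.70% in CD73+ Treg cells. It was thus the leading or joint leading TRAJ22 CDR3 of the 4 middle populations and of neither end.

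Its V gene also split by population. All 19 cells of CD4 SP, CD25+ TRP, Foxp3lo TRP and CD73- Treg used TRAV14D-3-DV8, while the 2 DP cells used TRAV14-2 and the 2 CD73+ Treg cells used TRAV14-1 and TRAV14N-1. A single rearrangement made up 14 of the 23 cells, and the whole CDR3 came from 5 rearrangements and 2 nucleotide versions. This CDR3 has arginine at position 4, counted from the cysteine, with GG or AG after the trimmed TRAV14 end and the uncut TRAJ22 start.

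The glycine-alanine CDR3 was the leading TRAJ22 CDR3 of CD73+ Treg cells. It was in 1 DP, 0 CD4 SP and 2 CD25+ TRP cells, in 0 Foxp3lo TRP cells, and in 0 CD73- and 9 CD73+ Treg cells. The 9 cells were 0.851% of CD73+ Treg cells (0.390 to 1.61), rank 6 among all their CDR3, against 0 of 1849 CD4 SP cells, with an exact upper bound of 0.199%. By the deposited V assignment it came from 6 rearrangements with 5 TRAV14 copies and 3 nucleotide versions, the largest rearrangement in 3 of its 12 cells. Its main nucleotide version, with 4 TRAV14 copies, was in 9 of the 12 cells, 7 of them CD73+ Treg cells. Its main version keeps the whole TRAV14 end and lacks the first 3 bases of TRAJ22.

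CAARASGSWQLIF had the most nucleotide versions of the CDR3 with at least 10 cells, at 5 in 11 cells. It was in 0 DP, 0 CD4 SP and 4 CD25+ TRP cells, in 1 Foxp3lo TRP cell, and in 1 CD73- and 5 CD73+ Treg cells, with exact upper bounds of 0.291% in DP and 0.199% in CD4 SP cells. Among cells with a population it was seen in the Treg progenitor and Treg populations alone, and 3 barcodes without a population also carried it. Its intervals in CD25+ TRP (0.0612 to 0.573%) and CD73+ Treg cells (0.154 to 1.1%) overlapped those upper bounds. TRAV14-1 was its V gene in 10 of 11 cells. The versions are shown because 5 different junctions spell the same 13 residues.

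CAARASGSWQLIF, version in 6 cells: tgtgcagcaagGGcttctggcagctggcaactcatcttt
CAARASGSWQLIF, version in 2 cells: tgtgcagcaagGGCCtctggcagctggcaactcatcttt
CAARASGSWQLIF, first version in 1 cell: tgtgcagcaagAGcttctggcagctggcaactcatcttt
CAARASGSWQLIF, next version in 1 cell: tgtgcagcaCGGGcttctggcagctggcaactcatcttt
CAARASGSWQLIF, last version in 1 cell: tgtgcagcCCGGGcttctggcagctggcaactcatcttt

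The longer cuts into the TRAV14 end, in the last 2 lines, leave 9 and 8 of its 13 bases. In those junctions the whole arginine codon is in bases outside the germline, while in the other 3 it begins with AG of the V end.

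The other 3 CDR3 with at least 10 cells were found mostly in CD4 SP cells. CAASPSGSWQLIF was in 1 DP, 8 CD4 SP and 1 CD25+ TRP cells, in 1 Foxp3lo TRP cell, and in 0 CD73- and 0 CD73+ Treg cells. Of its 11 cells 8 used TRAV14N-2, and these 8 had 1 rearrangement, 7 of them CD4 SP cells. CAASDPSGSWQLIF was in 1 DP, 7 CD4 SP and 1 CD25+ TRP cells, in 0 Foxp3lo TRP cells, and in 0 CD73- and 1 CD73+ Treg cells, from 5 rearrangements, the largest in 3 cells. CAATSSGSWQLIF was in 0 DP, 6 CD4 SP and 3 CD25+ TRP cells, in 0 Foxp3lo TRP cells, and in 1 CD73- and 0 CD73+ Treg cells, from 7 rearrangements and 4 nucleotide versions. The first therefore rested mostly on 1 rearrangement in CD4 SP cells and the others on several.

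In the smallest populations the leading TRAJ22 CDR3 were seen in 2 cells each. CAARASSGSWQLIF and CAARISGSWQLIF tied in Foxp3lo TRP cells, and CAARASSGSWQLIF and the 15-residue CDR3 tied in CD73- Treg cells. All 6 cells of the 15-residue CDR3 used TRAV14D-3-DV8, with 5 inserted bases, and they were 1 DP, 1 CD4 SP, 2 CD25+ TRP and 2 CD73- Treg cells.

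**Figure D4:**
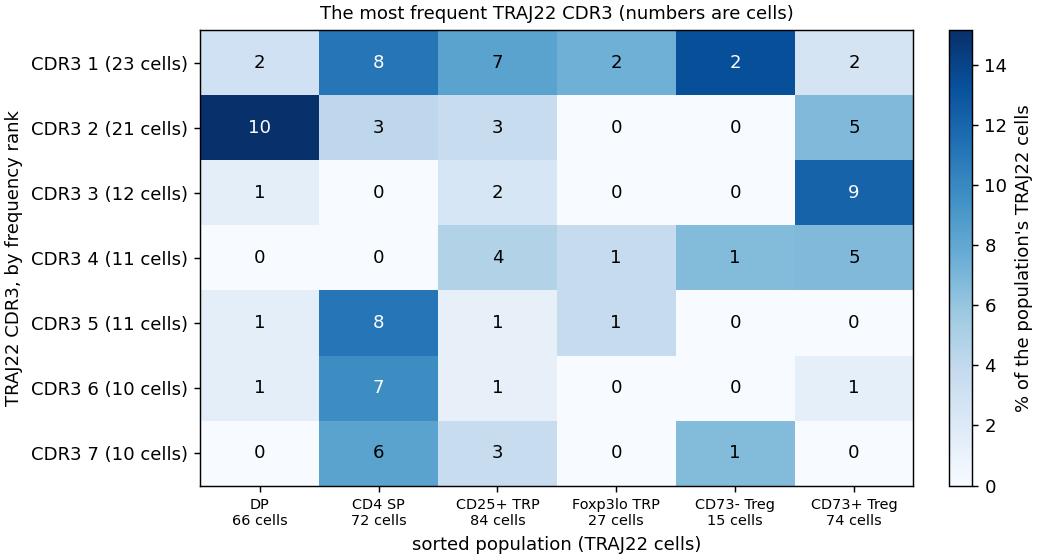
Cells of each sorted population (columns, with its number of TRAJ22 cells) that carry each of the 7 TRAJ22 CDR3 with at least 10 cells (rows, ranked by cells); colour gives the percent of the population's TRAJ22 cells. Row 1 is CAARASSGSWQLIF, row 2 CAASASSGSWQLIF with 10 DP cells, row 3 the glycine-alanine CDR3 with 9 CD73+ Treg cells, row 4 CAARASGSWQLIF, row 5 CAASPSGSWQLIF with 8 CD4 SP cells, row 6 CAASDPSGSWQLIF and row 7 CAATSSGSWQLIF.

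Recurrence by separate rearrangements, by the deposited V assignment, was the rule for TRAJ22 CDR3 seen in at least 2 cells. Of 46 such CDR3, 43 (93.5%) came from at least 2 rearrangements and 35 (76.1%) from at least 2 nucleotide versions, against 711 (86.3%) and 585 (71.0%) of 824 CDR3 with other TRAJ. All 7 with at least 10 cells had several nucleotide versions, with a median of 3, against a median of 4 for the 69 with other TRAJ. TRAJ22 therefore lay near the other segments by this measure. Of all 155 TRAJ22 CDR3, 120 had 1 nucleotide version, and the most was 5.

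TRAJ22 chains used the TRAV14 copies in other proportions than the chains of other TRAJ. The copies are closely related genes on mouse chromosome 14, their assignment is that of the deposited table, and reads of 1 copy could be given to another. TRAV14-3, the copy nearest to the J segments at 433553 bases from TRAJ22, was in 3 of 338 TRAJ22 cells (0.888%, 0.183 to 2.57), against 482 of 6644 cells with other TRAJ (7.25%, 6.64 to 7.90). TRAV14D-2, the farthest copy at 1248078 bases, was in 24 TRAJ22 cells (7.10%, 4.60 to 10.4), against 2.62% of other cells (2.25 to 3.03). TRAV14N-2 was in 51 TRAJ22 cells (15.1%, 11.4 to 19.4), against 8.94% (8.26 to 9.65). The intervals of these 3 copies were apart, also with each rearrangement counted once.

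The most used copies were TRAV14-1, in 73 TRAJ22 cells (21.6%, 17.3 to 26.4) against 17.8% of others, and TRAV14D-3-DV8, in 69 (20.4%, 16.2 to 25.1) against 25.8% (24.7 to 26.8). TRAV14N-1 was in 13.0% against 14.3%, TRAV14N-3 in 10.4% against 10.3% and TRAV14-2 in 8.88% against 10.8%. The intervals of these 5 overlapped. A V gene outside the TRAV14 family was assigned in 9 TRAJ22 cells (2.66%), against 2.24% of others, although the sort was for Vα2. In DP cells it was 5 of 66 (7.58%) against 8.75%, and both pairs of intervals overlapped.

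**Figure D5:**
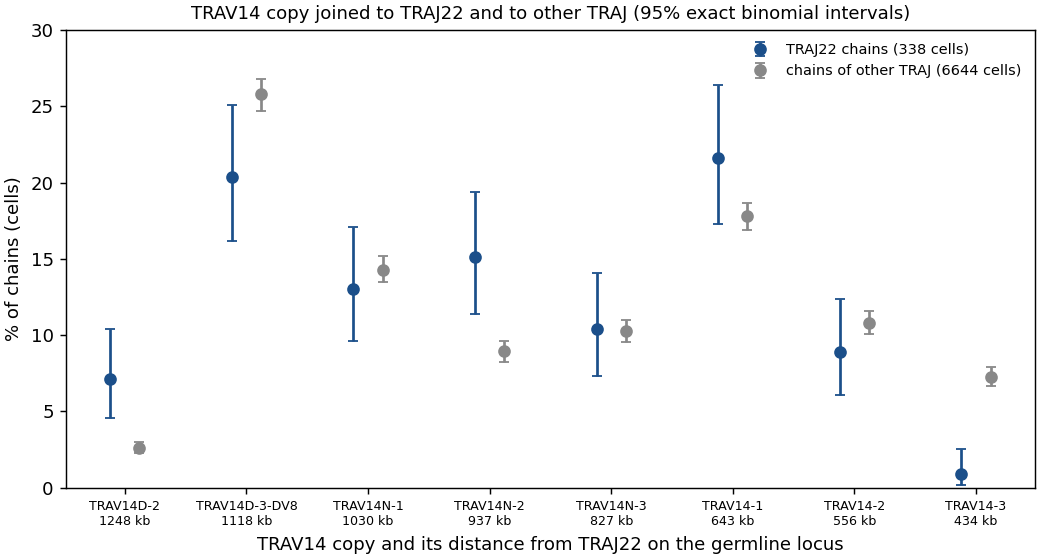
Share of chains that use each TRAV14 copy (vertical axis, percent) among the 338 TRAJ22 cells and the 6644 cells with other TRAJ; copies run from the farthest to the nearest to TRAJ22 on the germline locus. Bars are exact 95% intervals; TRAV14D-2 and TRAV14N-2 lie higher with TRAJ22, and TRAV14-3 lies at 0.888% with TRAJ22 and 7.25% with other TRAJ.

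The low use of TRAV14-3 was not particular to TRAJ22. Of 36 TRAJ segments compared, TRAJ22 had rank 11 from the lowest by TRAV14-3 share, and its neighbours TRAJ21, at 1.10%, and TRAJ23, at 1.38%, were close to it, while TRAJ24 had 0 of 100. The 21 segments on the constant-gene side of TRAJ33 had between 0.0% and 2.78% of TRAV14-3, and the 15 from TRAJ33 to the V side had between 6.00% and 68.2%. TRAJ33 was set as the border after these values were seen. The TRAV14-3 cells with TRAJ22 were 2 DP and 1 CD25+ TRP.

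Within each population the partner V use of TRAJ22 chains was set beside that of other TRAJ. In CD4 SP cells TRAV14D-2 was in 11 of 72 TRAJ22 cells (15.3%, 7.88 to 25.7), against 3.21% of cells with other TRAJ (2.44 to 4.14), and TRAV14N-2 in 17 (23.6%, 14.4 to 35.1), against 11.7% (10.2 to 13.3). In CD25+ TRP cells TRAV14-1 was in 27 of 84 (32.1%, 22.4 to 43.2), against 19.7% (17.8 to 21.6). In CD73+ Treg cells TRAV14D-3-DV8 was in 11 of 74 (14.9%, 7.66 to 25.0), against 30.4% (27.6 to 33.4). These pairs of intervals were apart by cells, as were those of TRAV14-3 in DP and in CD4 SP cells. All other pairs overlapped, over the 8 TRAV14 copies and the V genes outside the family in each of 6 populations.

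With each rearrangement counted once, TRAV14D-2 in CD4 SP cells stayed at 8 of 53 (15.1%, 6.75 to 27.6) against 3.21% (2.31 to 4.35), and TRAV14N-2 at 10 of 53 (18.9%, 9.44 to 32.0) against 7.63% (6.22 to 9.25). TRAV14D-3-DV8 in CD73+ Treg cells came to 10 of 60 (16.7%, 8.29 to 28.5) against 22.8% (19.8 to 26.0), with overlapping intervals. For TRAV14-1 in CD25+ TRP cells the intervals then also overlapped, at 33.3% (22.7 to 45.4) against 21.7% (19.5 to 24.1). The same held for TRAV14-3, at 2 of 60 in DP cells (3.33%, 0.406 to 11.5) against 13.0% (11.1 to 15.0), and at 0 of 53 in CD4 SP cells (0.0 to 6.72) against 6.59% (5.27 to 8.11).

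The bases trimmed from TRAJ22 numbered 2.18 ± 2.0 (SD over 329 scored cells with a TRAV14 chain), against 3.33 ± 2.65 from other TRAJ (SD over 6159 cells). Bases matching neither germline end numbered 2.94 ± 1.99 (SD over 329 cells) in TRAJ22 chains, against 2.74 ± 2.11 (SD over 6159 cells). These SDs are the spread of single cells, and no test was made of the differences of the means. The TRAJ22 means are by cells and were not recounted once per rearrangement. They include the 18 direct joins of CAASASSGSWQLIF, 8 of them in DP cells, with nothing trimmed or added. The means are therefore not independent of the choice of TRAJ22. By population the mean number of such bases in TRAJ22 chains was 2.61 in DP, 2.54 in CD4 SP and 2.82 in CD25+ TRP cells, with 3.89 in Foxp3lo TRP cells, and 3.13 in CD73- and 3.36 in CD73+ Treg cells, with an SD between 1.64 and 2.24. A base added by chance that matches the germline is counted as germline, so inserted bases are a lower count.

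The CDR3 of TRAJ22 chains had a median of 14 residues and ranged between 10 and 16, against a median of 13 for other TRAJ. Of TRAJ22 cells 47.3% had 14 residues and 37.9% had 13. In DP cells 41 of 66 had 14 residues (62.1%, 49.3 to 73.8), 10 of them with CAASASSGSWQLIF, so this share is not independent of the choice of TRAJ22. In CD4 SP cells it was 40 of 72 (55.6%, 43.4 to 67.3) and in CD25+ TRP cells 31 of 84 (36.9%, 26.6 to 48.1). The interval of CD4 SP cells overlapped both others, while those of DP and CD25+ TRP cells were apart. CD25+ TRP cells had 13 residues in 40 of 84 (47.6%, 36.6 to 58.8).

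Residue 4 is the last that the TRAV14 end spells in full, as serine, and trimming of that end can change it. Serine at that place, over all V genes, was in 189 of 338 TRAJ22 cells (55.9%, 50.4 to 61.3), against 66.1% of cells with other TRAJ (65.0 to 67.2). Counted once per rearrangement, with a rearrangement taken once over all cells, it was 57.8% (51.4 to 64.0) against 60.9% (59.5 to 62.3), and the intervals overlapped. Arginine, a positively charged residue, was in 65 TRAJ22 cells (19.2%, 15.2 to 23.8), against 13.3% (12.5 to 14.1). The 65 cells held 22 different CDR3, and 34 used TRAV14D-3-DV8 and 25 used TRAV14-1.

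Arginine 4 was in 7 of 66 TRAJ22 cells of DP, 9 of 72 of CD4 SP, 21 of 84 of CD25+ TRP, 7 of 27 of Foxp3lo TRP, 6 of 15 of CD73- Treg and 15 of 74 of CD73+ Treg cells. In CD25+ TRP cells that was 25.0% (16.2 to 35.6), against 12.8% with other TRAJ (11.2 to 14.5). Counted once per rearrangement the overall shares were equal, at 35 of 251 TRAJ22 rearrangements (13.9%, 9.91 to 18.9) against 13.9% of 4551 others (12.9 to 14.9). In CD25+ TRP cells it was then 18.1% (9.98 to 28.9) against 13.5% (11.7 to 15.5). By this count the TRAJ22 share was below that of other TRAJ in DP (10.0% against 13.3%) and CD4 SP cells (5.66% against 11.4%). It was above in Foxp3lo TRP (25.9% against 16.6%), CD73- Treg (35.7% against 19.4%) and CD73+ Treg cells (21.7% against 16.0%), as in CD25+ TRP cells, and the intervals overlapped in all 6 populations.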

How the data were processed

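The 3 libraries (expression, hashtag and TCR enriched for α chains) were made from 1 pool of sorted cells with a 10x Genomics 5' kit (v2), as the labels' protocols state. Cell Ranger 3.1.0 and Seurat 3.1.1, with the builds GRCm38 and mm10, are named in the submitters' processing notes, without their roles. How cells were filtered and doublets handled is not given in the sources used here. UMI counts per gene row and cell were deposited by the authors, as were UMI counts per assembled contig with its V and J gene, CDR3 and productivity. The deposited metadata give population and cluster in the order of the matrix columns, and clonotype names matched for 6982 of 6982 cells. The hashtag class Treg was taken to be CD73- Treg.

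Cells with exactly 1 productive α contig were used, and cells with 2 (330) entered an alternative only. TRAJ22, the CDR3 and the lists were chosen with earlier results of these data known. CDR3 were named if carried by at least 10 cells or most frequent in a population, up to 3 when tied. Junctions of TRAV14 chains were split by the longest match to the germline V end and then to the J start, from GENCODE M21 (GRCm38) transcripts, with at least 9 matched J bases, and the split was tested on simulated junctions. With no replicates no test was made. Python 3.11.15, numpy 2.4.6, pandas 2.3.3 and scipy 1.17.1 gave shares and exact 95% intervals, whose upper bound is the limit given for a count of 0. Intervals cover counting error only. The marker genes listed for checking the sort could not be used, since the gene rows carry no name.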

Additional observations from a re-analysis of the deposited data

Results flagged for a closer look

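Barcodes of the contig table that are absent from the expression matrix carry no population or cluster, and they held TRAJ22 chains that no comparison above uses. Of 2747 such barcodes with exactly 1 productive α contig, 128 carried TRAJ22 (4.66%, 3.90 to 5.52), against the 0.109% that a count of 3 barcodes sets. Their contigs had a median of 23 UMIs, as did those of all these barcodes. They held 81 different CDR3, of which 42, in 85 barcodes, were also among the TRAJ22 cells with a population. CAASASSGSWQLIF led the named ones with 10 barcodes (7.81% of the 128, 3.81 to 13.9), and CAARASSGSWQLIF was in 4.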

How the results depend on the processing

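No paired analysis was possible because the series holds 1 pool with 1 set of libraries, so no group has a second replicate to pair or to leave out. All 74 values recomputed stayed within the exact 95% interval of the value above or, for the number of different CDR3, within 1.5 times it. Over the settings tried, the TRAJ22 share lay between 4.67% and 5.51% in DP, 3.48% and 4.19% in CD4 SP, 4.34% and 5.32% in CD25+ TRP, 3.12% and 4.84% in Foxp3lo TRP, 5.88% and 6.99% in CD73- Treg and 6.82% and 7.65% in CD73+ Treg cells. The settings were cells with several α chains, TRAV14 chains alone, each CDR3 or each rearrangement once, and contigs with at least 3 UMIs. Others left out the top 5% of cells by UMIs, small clusters, cluster 9 (CD73+ Treg cells) or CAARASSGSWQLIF, the most frequent TRAJ22 CDR3. That CDR3 was in 2 DP and 2 CD73+ Treg cells. No setting left out the leading TRAJ22 CDR3 of DP cells (10 of 66) or of CD73+ Treg cells (9 of 74). The intervals of CD73+ Treg and CD4 SP cells stayed apart in all 8 settings that both have, most narrowly with each CDR3 counted once (5.18 to 9.31 against 2.62 to 5.16). With 15 TRAJ22 cells in CD73- Treg and 27 in Foxp3lo TRP, little can be seen there. Differences between mice cannot be told apart from those between populations, and the share of cells with an α chain moved with the population, a part in the result that was not tested.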

Other observations

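Cells with 2 productive α contigs, left out above, numbered 330, and TRAJ22 was in 25 of them (7.58%, 4.96 to 11.0), 2 of these with 2 TRAJ22 contigs. With 2 contigs there are 2 chances to find TRAJ22, so this share cannot be set against that of cells with 1 chain. The mice had 1 intact TCRα allele, and whether each such barcode held a single cell was not tested. By population these 25 were 6 DP, 4 CD4 SP and 6 CD25+ TRP cells, with 2 Foxp3lo TRP cells, and 0 CD73- and 7 CD73+ Treg cells. Of 858 nonproductive α contigs with an assigned TRAJ, in or outside the matrix, 23 used TRAJ22 (2.68%, 1.71 to 4.0), and 5 of the 23 were in the matrix. Among matrix cells with 1 productive α chain TRAJ22 was at 4.84% (4.35 to 5.37). The first share counts contigs and the second cells, over different barcodes, so their difference cannot be read as one of TRAJ22 use.

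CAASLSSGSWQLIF, picked after its values were seen, was in 1 cell of each population except CD73- Treg, and all 5 cells used TRAV14-1, with 2 rearrangements. It was the only TRAJ22 CDR3 in exactly 5 populations. Outside the matrix, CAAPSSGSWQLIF was in 6 barcodes, against 7 cells in the matrix, and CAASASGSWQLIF in 5, against 9.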
